A study of Mus musculus with 12 samples.

Results

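The quiescence and growth restraint genes described here were 10 genes, Klf2, Klf3, Foxo1, Foxo3, Btg1, Btg2, Tob1, Txnip, Tsc22d3 and Ddit4, out of 50090 gene symbols on the array. They were found as the non-control spots that carried one of these symbols, which gave 18 probes, and each gene was read by its brightest probe. The study used resting B (RB) cells of the spleen of BALB/c mice, female and aged 6 weeks by the labels, obtained by removing the cells that carry CD43. The cells were cultured for 4 h in 6 conditions with 2 arrays each: unstimulated, with Pam2CSK4 (a lipopeptide ligand of TLR-2), with anti-CD86 antibody, with both (TLR2.CD86), with anti-CD40 antibody, and with anti-CD40 antibody and Pam2CSK4 (here called TLR2.CD40). The study's methods also name an isotype control antibody, but none of the 12 arrays is labelled with it. The conditions without anti-CD86 or anti-CD40 are labelled with no antibody, so an effect of antibody as such was not tested. The study's legends call the 2 samples of a condition biological replicates, and the labels do not say whether they came from separate mice or cultures. If they did not, p-values measured only the spread between these samples, which may be technical.

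A resting lymphocyte is held outside the cell cycle by active restraint, and stimulation through CD40 or a Toll-like receptor removes part of it. KLF2 and FOXO1 are transcription factors of the resting state that drive homing receptors and cell cycle inhibitors, and FOXO proteins are pushed out of the nucleus when PI3K and Akt are active. BTG1, BTG2 and TOB1 bind the CCR4-NOT deadenylase and speed the loss of mRNA, TXNIP binds thioredoxin and limits glucose uptake, TSC22D3 (GILZ) is a glucocorticoid-induced leucine zipper protein, and DDIT4 (REDD1) is a stress-induced inhibitor of mTORC1.

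All values are log2 of the deposited Cy3 intensity less the 75th percentile of that array, so that 0 is the brightness of that percentile. A gene was called changed when limma gave an adjusted p under 0.05 over 31601 probes. The 12 arrays lay on 2 slides. Slide 1 held 8 arrays, among them both arrays of unstimulated cells and of TLR2.CD40, and slide 2 held the second array of the other conditions. When the slide was entered as a term, 18062 of the 31601 probes were called for it. Each slide had its own scan run, and slide 2 held only second samples. The slide, the scan run and the set of samples therefore cannot be told apart in this term. For the probes of 9 of the 10 genes the slide term (slide 2 minus slide 1) was -0.37 to -0.05, and for Foxo3 0.85, so the counts of calls, and the folds of the 10 genes whose call it changes, are given without and with the slide as a block. On the arrays 46.6% to 60.6% of spots stood well above background, and 987 to 1206 spots were saturated. The 60.6% belonged to the second anti-CD40 array, whose median intensity was 51.3 against 17.3 to 33.5 on the others. All 8 B cell markers were well above background on every array. Markers of other cells were measured too. The summed signal of 6 T cell markers, in multiples of the 75th percentile, was 14.2 to 14.5 in unstimulated cells and 9.31 to 13.6 in the stimulated conditions, and that of 6 NK cell markers was 16.8 to 17.0 against 9.61 to 14.6. All 8 myeloid markers were well above background on every array, and the brightest, S100a9, was saturated on all 12, so their sum is not compared. Of 6 endothelial markers, Pecam1, Vwf and Egfl7 were well above background on all 12 arrays, Cdh5 on 1, and Kdr and Tek on none, with a summed signal of 3.07 to 3.30 in unstimulated cells and 2.18 to 2.84 in the stimulated conditions. The summed signal of 4 red cell markers was 84.6 to 85.0 in unstimulated cells, 103 with TLR2.CD40 and 58.4 to 106 over all stimulated conditions. Fewer cells of a type and less RNA per cell cannot be told apart in such bulk samples.

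The promoters of 4 of the genes are shown: those of Ddit4 and Btg2 because these genes had the widest ranges over the conditions, and those of Txnip and Klf2 because they hold the letters of a FOXO and a MEF2 site. Each is the 250 bases before the start of the RefSeq gene on its own strand, 5′ to 3′, in build GRCm38.p6, at chr10:59951771-59952020 (minus strand) for Ddit4, chr1:134079156-134079405 (minus) for Btg2, chr3:96557707-96557956 (plus) for Txnip and chr8:72318812-72319061 (plus) for Klf2. Capitals mark matches to the FOXO, MEF2, CRE, E-box or CCAAT letters on either strand.
Ddit4: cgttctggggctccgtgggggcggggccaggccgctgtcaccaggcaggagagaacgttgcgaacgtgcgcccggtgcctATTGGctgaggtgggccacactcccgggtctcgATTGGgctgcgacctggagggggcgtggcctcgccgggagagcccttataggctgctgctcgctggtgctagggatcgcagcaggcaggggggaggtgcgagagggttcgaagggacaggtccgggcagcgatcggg
Btg2: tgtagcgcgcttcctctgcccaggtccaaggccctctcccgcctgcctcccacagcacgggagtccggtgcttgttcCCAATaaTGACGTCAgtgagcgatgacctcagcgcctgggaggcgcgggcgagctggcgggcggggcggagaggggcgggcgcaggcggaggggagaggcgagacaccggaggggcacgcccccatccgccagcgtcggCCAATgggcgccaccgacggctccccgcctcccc
Txnip: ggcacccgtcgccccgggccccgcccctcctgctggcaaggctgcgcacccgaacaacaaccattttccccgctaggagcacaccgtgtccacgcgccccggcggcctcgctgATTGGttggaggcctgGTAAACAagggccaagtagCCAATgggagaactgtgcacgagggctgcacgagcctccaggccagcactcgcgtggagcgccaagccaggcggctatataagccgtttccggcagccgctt
Klf2: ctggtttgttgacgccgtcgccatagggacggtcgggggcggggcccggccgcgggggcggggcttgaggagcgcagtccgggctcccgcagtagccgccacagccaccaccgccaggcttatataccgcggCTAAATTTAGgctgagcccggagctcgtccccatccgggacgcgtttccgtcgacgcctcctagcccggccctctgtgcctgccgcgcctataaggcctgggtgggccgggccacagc

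The FOXO word TGTTTAC stood in the promoters of 2 of the 10 genes, Txnip (at -121 from the start) and Btg1 (at -204), against 3.17% of 32851 promoters of the same length. The cyclic AMP response element TGACGTCA was found in 1 gene, Btg2 (at -166), against 1.55% of all promoters, and the MEF2 word CTANNNNTA in 1 gene, Klf2 (at -118, overlapping a match on the other strand at -117), against 19%. The CCAAT box stood in 6 of the 10 genes against 33.8% of promoters, with 2 copies in Ddit4 at -170 and -137. A GC box, GGGCGG, was present in all 10 genes against 32.7% of promoters. The promoters of the 10 genes held 49.2% to 78.4% G and C against a median of 52.4% over all promoters. The E-box CACGTG (6.02% of promoters) and the NF-kB word GGGNNTTCC (4.98%) matched none of the 10. Both strands were searched, Tsc22d3 was searched in 3 alternative promoters, and a match of letters is a description and not a site.

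The genes differed widely in brightness. Of the 18 probes, 17 were well above background on all 12 arrays. The brightest probes of Klf2 and Btg1 were saturated on all 12 arrays and give no fold, so both genes were read by their next probe. Foxo3 was well above background on 6 of 12 arrays and on none of the 2 TLR2.CD40 arrays, so it has no fold there. TLR2.CD86 was its only condition with both arrays well above background, and through that condition alone its probe entered the fit. The other 7 genes were read by an unsaturated brightest probe that was well above background in every condition. Counts out of 8 of the members add Foxo3 to these 7. The plot of all values by condition shows 4 patterns. Ddit4 split by stimulus in both directions, Btg2 and Foxo1 were low with anti-CD40, and Klf3 was high with anti-CD40. Klf2, Tsc22d3 and also Foxo1 were highest in unstimulated cells.

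**Figure D1:**
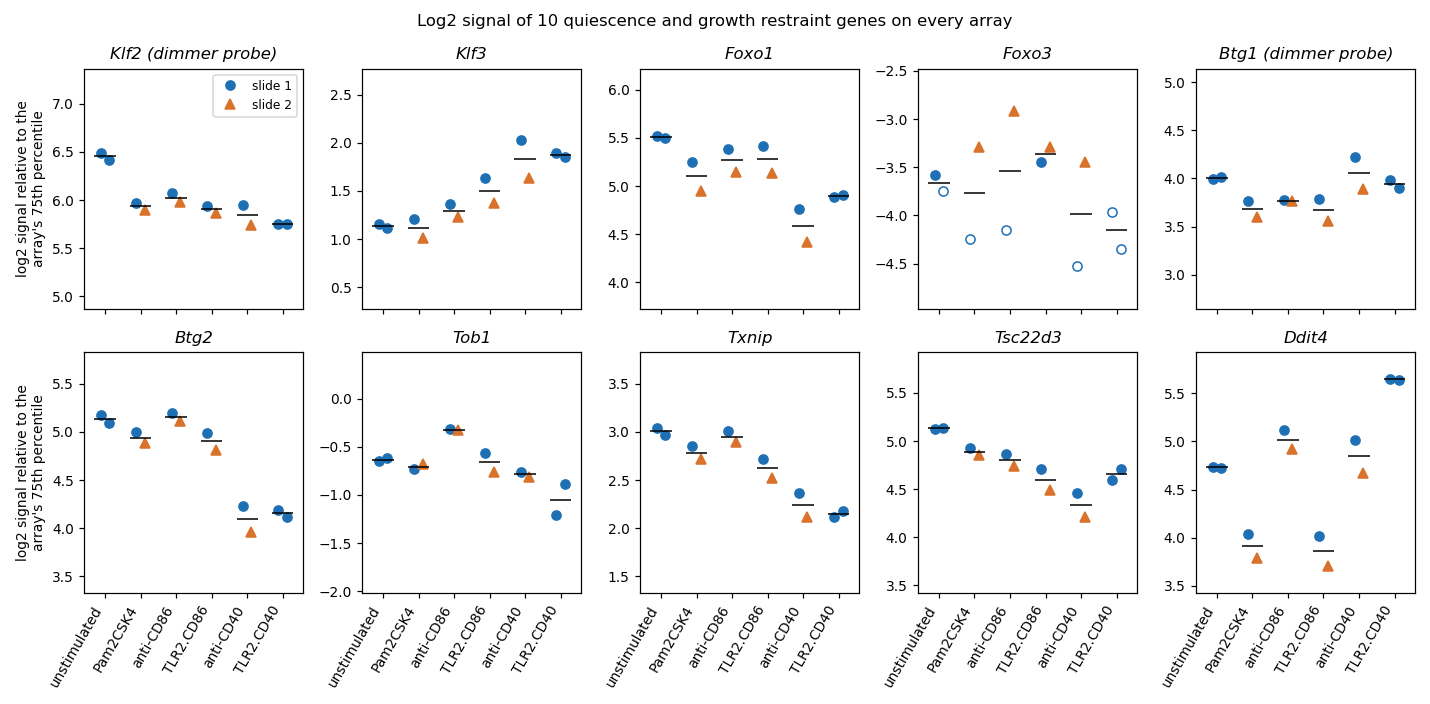
Level of each of the 10 genes on each of the 12 arrays, on the vertical axis as log2 intensity less that array's 75th percentile (each panel spans 2.5 log2 units), by condition. Circles are slide 1, triangles slide 2, open symbols arrays where the probe was not well above background, and bars the mean of 2 arrays. Ddit4 lies between 5.64 and 5.65 with TLR2.CD40 and between 3.71 and 4.02 with TLR2.CD86, and Btg2 lies between 3.96 and 4.23 in the 2 anti-CD40 conditions and at or above 4.81 elsewhere.

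Over the 6 conditions 6 of the 7 genes with a measured brightest probe differed (7 of 9 when Klf2 and Btg1 were read by their next probe), against 20.4% of all probes tested, and with the slide as a block 7 of 7 differed against 60%. Tob1 was the gene that did not pass without the block. Against unstimulated cells no gene was called with Pam2CSK4 (limma; 0.146% of all probes were called, and 2 of 8 genes had an unadjusted p under 0.05, as did 5006 of the 31601 probes). None was called with anti-CD86 (2.17% of probes, and again 2 of 8 before adjustment, with 7331 of the 31601 probes). TLR2.CD86 lowered 2 of 8 genes, Tsc22d3 and Ddit4, and also Klf2 by its next probe, against 10.8% of probes. Anti-CD40 changed 5 of 8 genes against 16.8% of probes: Klf3 rose, and Foxo1, Btg2, Txnip and Tsc22d3 fell, as did Klf2 by its next probe. TLR2.CD40 changed 6 of 7 genes against 18.2%: Klf3 and Ddit4 rose, and Foxo1, Btg2, Txnip and Tsc22d3 fell, as did Klf2 by its next probe.

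With the slide as a block more probes passed in every comparison, and the genes must be read against that. Pam2CSK4 then changed 2 of 8 genes (11.1% of probes), Foxo1 and Ddit4, which both fell. Anti-CD86 changed 3 of 8 (28.5% of probes), with Klf3 and Ddit4 up and Tsc22d3 down, TLR2.CD86 changed 4 of 8 (35.1%), anti-CD40 6 of 8 (37.3%) and TLR2.CD40 7 of 7 (47.5%). Klf2, by its next probe, was lower in all 5 of these comparisons.

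Over all 10 genes with an unsaturated probe, the median log2 fold change was -0.23 with Pam2CSK4 (10 of 10 below 0; median of all probes -0.07) and -0.01 with anti-CD86 (5 of 10; -0.05). It was -0.28 with TLR2.CD86 (8 of 10; -0.03), -0.47 with anti-CD40 (7 of 10; -0.02) and, over 9 genes, -0.47 with TLR2.CD40 (7 of 9; 0.01). These medians and counts are without the block, and the share of all probes below 0 was not counted. They include Foxo3, which entered the fit only through TLR2.CD86, its highest condition. Its value with Pam2CSK4 ranged from -0.57 to 0.38 with an array left out. With the block Klf3 with Pam2CSK4 and Txnip with anti-CD86 stood above 0, and Foxo3 with anti-CD86 and with TLR2.CD86 below 0. The 5 comparisons shared the same 2 unstimulated arrays.

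**Figure D2:**
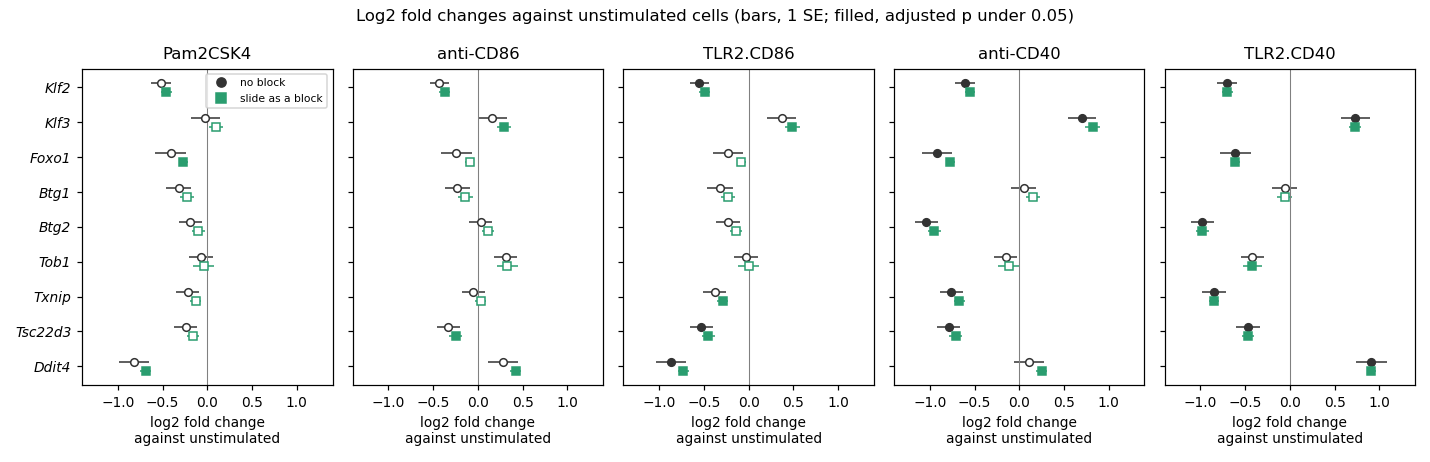
Log2 fold change against unstimulated cells on the horizontal axis for 9 genes (rows) in the 5 stimulated conditions (panels), without a block (circles) and with the slide as a block (squares); bars are 1 standard error and filled symbols have an adjusted p under 0.05. Ddit4 lies at -0.87 with TLR2.CD86 and 0.91 with TLR2.CD40, and Btg2 at -1.04 and -0.98 in the anti-CD40 conditions.

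Ddit4, the inhibitor of mTORC1, was read by its only probe, 1 of the 18. Its range of condition means was the widest, 1.78 on the log2 scale. It measured 4.74 and 4.73 in unstimulated cells, 4.04 and 3.79 with Pam2CSK4, 5.12 and 4.92 with anti-CD86, 4.02 and 3.71 with TLR2.CD86, 5.02 and 4.67 with anti-CD40, and 5.65 and 5.64 with TLR2.CD40. The conditions with Pam2CSK4 thus included both the lowest and the highest arrays, since Pam2CSK4 with no antibody or with anti-CD86 lay below every other array, and Pam2CSK4 with anti-CD40 above every other array. In order from the highest, the means were 5.65 with TLR2.CD40, 5.02 ± 0.14 with anti-CD86, 4.85 ± 0.25 with anti-CD40, 4.74 unstimulated, 3.91 ± 0.18 with Pam2CSK4 and 3.87 ± 0.22 with TLR2.CD86 (SD, n = 2). The arrays of anti-CD86 and anti-CD40 overlapped, as did anti-CD40 and unstimulated, and Pam2CSK4 and TLR2.CD86.

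Ddit4 fell 1.83-fold with TLR2.CD86 against unstimulated cells (log2 fold change -0.87, SE 0.17, adjusted p = 0.0228) and rose 1.88-fold with TLR2.CD40 (0.91, SE 0.17, adjusted p = 0.00867). Its difference with Pam2CSK4 alone was as large as with TLR2.CD86, -0.82, but did not pass without the block (adjusted p = 0.12), and was -0.69 with it (adjusted p = 0.00423) and -0.70 on slide 1. TLR2.CD86 and Pam2CSK4 differed by -0.05 (95% interval -0.43 to 0.34, adjusted p = 1), and by -0.02 on slide 1 and -0.07 on slide 2. Anti-CD86 alone stood 0.28 above unstimulated cells (adjusted p = 0.358) and 0.42 with the block (adjusted p = 0.00434). Anti-CD40 alone stood 0.11 above them (adjusted p = 0.678), 0.25 with the block (adjusted p = 0.0161) and 0.29 on slide 1. TLR2.CD86 against anti-CD86 was -1.15 (adjusted p = 0.0538), -1.10 on slide 1 and -1.21 on slide 2, and passed with the block (adjusted p = 0.000691).

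The effect of Pam2CSK4 on Ddit4 differed with the antibody. With anti-CD40 already present, adding Pam2CSK4 raised it 1.74-fold (0.80, SE 0.17, adjusted p = 0.0487; 0.62 on slide 1). The interaction of anti-CD40 and Pam2CSK4, that is the change on adding Pam2CSK4 in anti-CD40 cells minus the change in cells without antibody, was 1.62 (SE 0.24, adjusted p = 0.0205), against a median of 0.16 over all probes. Ddit4 was the 1 gene of 7 that passed, where 1.16% of probes did. With the slide as a block it was 1.35 (adjusted p = 0.000923), and 2 of 7 genes passed, Ddit4 and Foxo1, against 8.58% of probes. On slide 1 alone, with 1 array of most conditions, the interaction was 1.32 and did not pass (adjusted p = 0.0705). The interaction of anti-CD86 and Pam2CSK4 was -0.33 for Ddit4 (adjusted p = 0.969). None of 8 genes passed it in limma (0.019% of probes, and 0 of 8 had an unadjusted p below 0.05, against 1357 of 31601 probes), nor did any with the slide as a block (0.234% of probes), where Ddit4 stood at -0.47 (adjusted p = 0.0866).

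Between the conditions with Pam2CSK4 the distance in Ddit4 was larger than for any other member with a fold. TLR2.CD40 stood 3.33-fold above Pam2CSK4 (1.73, adjusted p = 0.0012; 1.61 on slide 1) and 3.43-fold above TLR2.CD86 (1.78, adjusted p = 0.000974; 1.63 on slide 1). The call against TLR2.CD86 was kept under all 20 alternatives tried. The call for TLR2.CD40 against unstimulated cells was lost without any 1 of the 4 arrays compared (adjusted p up to 0.0629), that for TLR2.CD86 without either unstimulated array or without the second TLR2.CD86 array (up to 0.142), that for TLR2.CD40 against anti-CD40 without any 1 array but the first anti-CD40 array (up to 0.245), and the interaction without either TLR2.CD40 array, either unstimulated array or the second Pam2CSK4 array (up to 0.106).

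**Figure D3:**
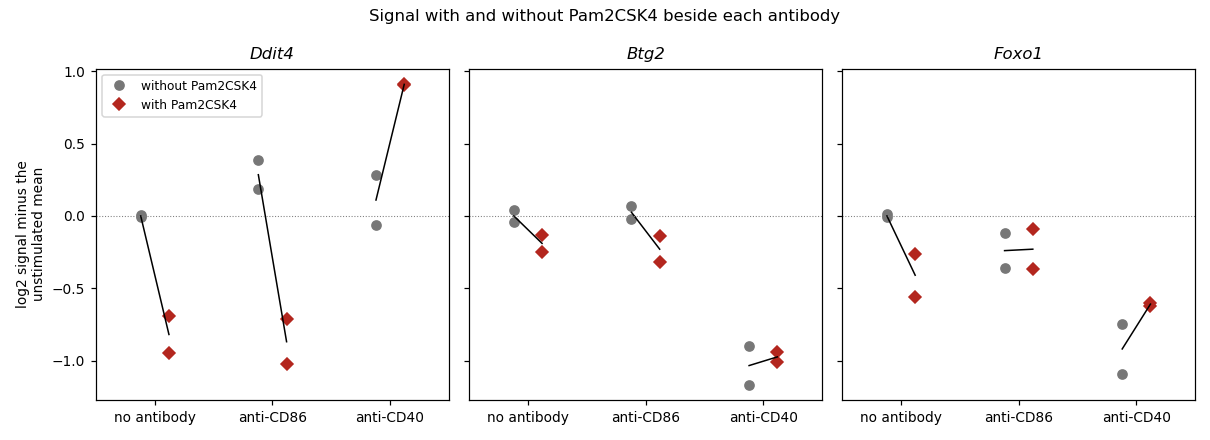
Log2 signal minus the mean of unstimulated cells (vertical axis) of Ddit4, Btg2 and Foxo1 on single arrays without and with Pam2CSK4, for cells with no antibody, with anti-CD86 and with anti-CD40; lines join the means of 2 arrays. The Ddit4 line goes down to -0.82 with no antibody and from 0.28 to -0.87 with anti-CD86, and up from 0.11 to 0.91 with anti-CD40, whereas Btg2 and Foxo1 are set apart mainly by anti-CD40.

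Btg2, a partner of the CCR4-NOT deadenylase with a known antiproliferative role, separated the conditions with anti-CD40 from all others. It measured 5.17 and 5.09 in unstimulated cells, 5.0 and 4.88 with Pam2CSK4, 5.20 and 5.11 with anti-CD86, 4.99 and 4.81 with TLR2.CD86, 4.23 and 3.96 with anti-CD40, and 4.19 and 4.12 with TLR2.CD40. The 4 arrays with anti-CD40 lay below the other 8 without overlap. Btg2 fell 2.05-fold with anti-CD40 (-1.04, SE 0.13, adjusted p = 0.00378) and 1.97-fold with TLR2.CD40 (-0.98, SE 0.13, adjusted p = 0.00241), and the difference between those conditions was 0.06 (95% interval -0.24 to 0.36). With the slide as a block the anti-CD40 value was -0.95, and on slide 1 -0.90. No single array ended either call (highest adjusted p 0.0436 and 0.0292). Each call was kept in 20 of 21 alternatives, and both were lost under median normalization (limma, adjusted p = 0.0773 and 0.416). Both other Btg2 probes also fell, by 0.99 and 1.00 on the log2 scale with anti-CD40 and by 0.91 and 1.05 with TLR2.CD40. With Pam2CSK4, anti-CD86 and TLR2.CD86 the log2 fold changes of the brightest probe were -0.19, 0.03 and -0.23, none of them called without or with the block.

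Btg1 and Tob1, of the same protein family, were not called in any comparison with unstimulated cells without the block. The next probe of Btg1 measured 3.99 and 4.01 in unstimulated cells, 3.76 and 3.60 with Pam2CSK4, 3.78 and 3.76 with anti-CD86, 3.79 and 3.56 with TLR2.CD86, 4.22 and 3.89 with anti-CD40, and 3.98 and 3.90 with TLR2.CD40. It was lowest in the 3 stimulated conditions without anti-CD40, with log2 fold changes of -0.32, -0.23 and -0.32, and 0.05 and -0.06 in those with anti-CD40, and no comparison with unstimulated cells passed without or with the block. Its brightest probe was saturated between 63800 and 72400 intensity units on all arrays.

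Tob1 was dim, below the 75th percentile on every array. It measured -0.65 and -0.62 in unstimulated cells, -0.73 and -0.68 with Pam2CSK4, -0.32 and -0.33 with anti-CD86, -0.56 and -0.76 with TLR2.CD86, -0.76 and -0.81 with anti-CD40, and -1.21 and -0.89 with TLR2.CD40. Anti-CD86 gave the highest arrays and TLR2.CD40 the lowest, with no overlap with any other condition. Neither passed: anti-CD86 was 0.31 above unstimulated cells (adjusted p = 0.206) and TLR2.CD40 0.42 below (log2 fold change -0.42, adjusted p = 0.0614). TLR2.CD40 passed with the slide as a block at the same value (adjusted p = 0.0196).

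Foxo1, the FOXO factor of mature B cells, was lower with anti-CD40. It measured 5.52 and 5.50 in unstimulated cells, 5.25 and 4.95 with Pam2CSK4, 5.39 and 5.15 with anti-CD86, 5.42 and 5.14 with TLR2.CD86, 4.76 and 4.42 with anti-CD40, and 4.89 and 4.91 with TLR2.CD40. The 4 arrays with anti-CD40 were the lowest, the nearest other array being the second one of Pam2CSK4, and those with anti-CD40 alone lay below those of TLR2.CD40. Both unstimulated arrays were the highest, as for the summed T cell, NK cell and endothelial markers but not the red cell markers. The part of these cells was not tested. Foxo1 fell with anti-CD40 (-0.92, SE 0.17, adjusted p = 0.0137; -0.77 with the block and -0.75 on slide 1) and with TLR2.CD40 (-0.61, SE 0.17, adjusted p = 0.0447). With Pam2CSK4, anti-CD86 and TLR2.CD86 no call was made without the block, while with it Pam2CSK4 stood at -0.27 (adjusted p = 0.0285). The interaction of anti-CD40 and Pam2CSK4 was 0.72 (adjusted p = 0.192), and 0.43 with the block (adjusted p = 0.0259). The second probe fell too, by 0.60 with anti-CD40 and 0.59 with TLR2.CD40 on the log2 scale, and its interaction was 0.24 (adjusted p = 0.429). The anti-CD40 call was lost without either unstimulated array or the second anti-CD40 array (adjusted p up to 0.0933), and the TLR2.CD40 call without any 1 array of TLR2.CD40, unstimulated or anti-CD86 (up to 0.187).

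Foxo3, a second FOXO factor, was near the limit of detection. It entered the fit only through TLR2.CD86, the condition with its highest mean, so its value there is no evidence of a difference. It lay between -4.53 and -3.44 on the 8 arrays of slide 1 and between -3.44 and -2.92 on the 4 arrays of slide 2, and the slide term for it was 0.85. Its log2 fold changes of -0.10 with Pam2CSK4, 0.13 with anti-CD86, 0.30 with TLR2.CD86 and -0.32 with anti-CD40 were not called, and the sign of those for anti-CD86 and TLR2.CD86 turned with the slide as a block (-0.30 and -0.13).

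Klf2, the Kruppel-like factor of the quiescent lymphocyte, was highest in unstimulated cells. Its next probe measured 6.49 and 6.42 in unstimulated cells, 5.97 and 5.90 with Pam2CSK4, 6.07 and 5.98 with anti-CD86, 5.94 and 5.87 with TLR2.CD86, 5.95 and 5.74 with anti-CD40, and 5.75 and 5.75 with TLR2.CD40. Both unstimulated arrays stood above the 10 stimulated arrays, which spanned 5.74 to 6.07. Klf2 fell by 0.55 on the log2 scale with TLR2.CD86 (SE 0.11, adjusted p = 0.0258), by 0.61 with anti-CD40 (adjusted p = 0.0125) and by 0.70 with TLR2.CD40 (adjusted p = 0.00474). The values of -0.52 with Pam2CSK4 (adjusted p = 0.123) and -0.43 with anti-CD86 (adjusted p = 0.0821) did not pass without the block. With the slide as a block they passed, at -0.46 (adjusted p = 0.0117) and -0.37 (adjusted p = 0.00699). Of 20 alternatives, Pam2CSK4 passed in this 1 only, and anti-CD86 in 3, among them the replicate block. The saturated brightest probe read 62800 to 65500 intensity units on every array. The summed T cell, NK cell and endothelial marker signals were likewise highest in unstimulated cells, and that of red cell markers was not. Their part in the result was not tested. The TLR2.CD86 call was lost without any 1 array of TLR2.CD86, unstimulated or TLR2.CD40 (adjusted p up to 0.164) and the anti-CD40 call without either unstimulated array or the second anti-CD40 array (up to 0.0993).

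Klf3, a repressor of the same family, went the other way. It measured 1.16 and 1.11 in unstimulated cells, 1.21 and 1.01 with Pam2CSK4, 1.36 and 1.23 with anti-CD86, 1.63 and 1.37 with TLR2.CD86, 2.03 and 1.63 with anti-CD40, and 1.89 and 1.85 with TLR2.CD40. The anti-CD40 conditions held the highest arrays, and the first TLR2.CD86 array reached the lower anti-CD40 array. Klf3 rose with anti-CD40 (0.70, SE 0.16, adjusted p = 0.0262; 0.82 with the block and 0.90 on slide 1) and with TLR2.CD40 (0.73, adjusted p = 0.0176). TLR2.CD86 stood at 0.37 (adjusted p = 0.168) and passed with the block, at 0.49 (adjusted p = 0.00442), as did anti-CD86 at 0.29 (adjusted p = 0.035). The dimmer second probe had the same direction, 0.46 with anti-CD40 and 0.22 with TLR2.CD40, and was not called (adjusted p = 0.0772 and 0.388). The anti-CD40 call was lost without any 1 array of TLR2.CD40 or unstimulated cells or without the first anti-CD40 array (adjusted p up to 0.146), and the TLR2.CD40 call without any 1 of the 4 arrays compared (up to 0.11).

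Txnip, the thioredoxin-binding brake on glucose uptake, was lower with anti-CD40 and intermediate with TLR2.CD86. It measured 3.04 and 2.97 in unstimulated cells, 2.85 and 2.72 with Pam2CSK4, 3.01 and 2.89 with anti-CD86, 2.72 and 2.52 with TLR2.CD86, 2.37 and 2.12 with anti-CD40, and 2.12 and 2.18 with TLR2.CD40. The 4 arrays with anti-CD40 lay below the other 8. Txnip fell with anti-CD40 (-0.76, SE 0.13, adjusted p = 0.0103; -0.67 with the block) and with TLR2.CD40 (-0.85, SE 0.13, adjusted p = 0.0041). TLR2.CD86 stood at -0.38 (adjusted p = 0.0951) and -0.29 with the block (adjusted p = 0.0131). A second, dim probe had -0.45 with anti-CD40 and -0.39 with TLR2.CD40 and was not called (adjusted p = 0.11 and 0.161). The anti-CD40 call was lost without either unstimulated array (adjusted p up to 0.0854).

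Tsc22d3, the glucocorticoid-induced leucine zipper, had its 2 highest arrays in unstimulated cells. It measured 5.12 and 5.14 in unstimulated cells, 4.93 and 4.85 with Pam2CSK4, 4.86 and 4.74 with anti-CD86, 4.71 and 4.49 with TLR2.CD86, 4.46 and 4.21 with anti-CD40, and 4.60 and 4.71 with TLR2.CD40. Both lay above all others, as they did for the summed T cell, NK cell and endothelial markers but not the red cell markers. The part of these cells in the result was not tested. Anti-CD40 alone gave the lowest arrays. Tsc22d3 fell with TLR2.CD86 (-0.53, SE 0.13, adjusted p = 0.0416), anti-CD40 (-0.79, adjusted p = 0.00914) and TLR2.CD40 (-0.47, adjusted p = 0.0408). With the block the first 2 were -0.45 and -0.71, and anti-CD86, -0.33 without it (adjusted p = 0.181), passed at -0.25 (adjusted p = 0.0429). Pam2CSK4 stood at -0.24 (adjusted p = 0.387) and did not pass without or with the block. The second probe fell by 0.87 and 0.75 on the log2 scale with anti-CD40 and TLR2.CD40 and had -0.62 with TLR2.CD86 (adjusted p = 0.0584). Leaving out either unstimulated array ended the anti-CD40 call (adjusted p up to 0.079). The TLR2.CD86 call was lost without any 1 array other than those of anti-CD40 (up to 0.204), and the TLR2.CD40 call without any 1 array of TLR2.CD40, unstimulated, Pam2CSK4 or anti-CD86 (up to 0.195).

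The comparisons between stimulated conditions ask what each signal added to the other. Adding anti-CD86 to Pam2CSK4 changed none of 8 genes (limma; 0.0633% of probes called, 1 of the 8 and 3283 of 31601 probes below 0.05 before adjustment). With the block it changed 2 of 8, Klf3 (0.39) and Tsc22d3 (-0.29), against 11% of probes. Adding Pam2CSK4 to anti-CD86 changed none of 8 (0.225% of probes, 3 of the 8 and 2812 of 31601 probes below 0.05 before adjustment). With the block it changed 2 of 8, Ddit4 (-1.15) and Txnip (-0.33), against 7.74% of probes. Adding Pam2CSK4 to anti-CD40 changed 1 of 7, Ddit4, against 2.9% of probes, and with the block again Ddit4 alone (0.66), against 15.2%.

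Adding anti-CD40 to Pam2CSK4 changed 4 of 7 genes against 9.97% of probes. Klf3 (0.76, adjusted p = 0.0249) and Ddit4 rose, and Btg2 (-0.79, adjusted p = 0.00966) and Txnip (-0.63, adjusted p = 0.0213) fell. With the block Foxo1 (-0.34) and Tsc22d3 (-0.31) fell as well, 6 of 7 genes against 31.5% of probes, as did Klf2 by its next probe (-0.24). TLR2.CD40 and TLR2.CD86, which differ in the antibody given with Pam2CSK4, differed in 2 of 7 genes, Ddit4 and Btg2 (-0.75, adjusted p = 0.00996), against 12.3% of probes. With the block 5 of 7 differed against 34.6%, adding Foxo1 (-0.52), Txnip (-0.56) and Tob1 (-0.41), and Klf2 differed by its next probe (-0.21). The Btg2 call against TLR2.CD86 was lost without either TLR2.CD40 array (adjusted p up to 0.0813). Of the calls against Pam2CSK4, that of Btg2 was lost without either TLR2.CD40 array or the first Pam2CSK4 array (up to 0.0829), that of Txnip without any 1 of the 4 arrays compared (up to 0.136), and that of Klf3 without any 1 of these or either unstimulated array (up to 0.149). That of Ddit4 was kept whichever array was left out (adjusted p up to 0.0169).

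Probes of the same gene gave the same sign in every comparison with unstimulated cells that was called by either probe. For the 3 Btg2 probes, the 2 Foxo1 probes and the 2 Tsc22d3 probes both anti-CD40 conditions were called on each probe. For Klf3 and Txnip they were called on the brighter probe and not on the dimmer one without the block.

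**Figure D4:**
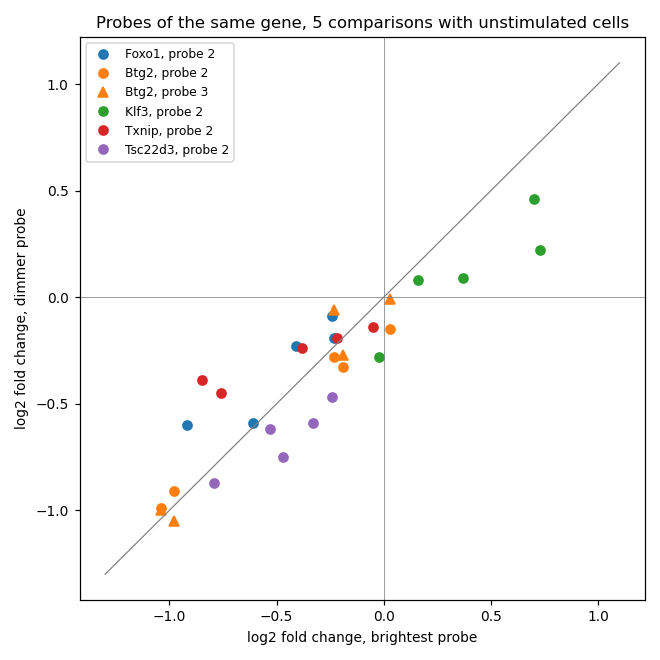
Log2 fold change of the dimmer probe (vertical axis) against that of the brighter probe (horizontal axis) of the same gene in the 5 comparisons with unstimulated cells, for the genes with more than 1 measured probe; the diagonal marks equal values. With anti-CD40 the brighter and dimmer probes read -1.04 and -0.99 for Btg2 (its second probe), -0.92 and -0.60 for Foxo1, -0.79 and -0.87 for Tsc22d3, 0.70 and 0.46 for Klf3, and -0.76 and -0.45 for Txnip.

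Genes that work with these 10 were read from 7 lists, each by the brightest unsaturated probe of the gene. The shares of all probes called are those given for the 10 genes: 0.146% with Pam2CSK4, 2.17% with anti-CD86, 10.8% with TLR2.CD86, 16.8% with anti-CD40 and 18.2% with TLR2.CD40, and with the slide as a block 11.1%, 28.5%, 35.1%, 37.3% and 47.5%. Counts and values are without the block unless it is named. With Pam2CSK4 alone none of the measured genes in the 7 lists was called. With the block 1 receptor, 1 Kruppel-like factor and 1 gene of the BTG list were lower, 2 genes of the FOXO list were lower and 2 higher, and 2 of the glucocorticoid list were lower and 1 higher. Among receptors driven by KLF2 and FOXO1 that guide lymphocytes into and out of lymphoid tissue, 1 of 4 measured genes was called in each of 3 conditions, S1pr1, the sphingosine-1-phosphate receptor. S1pr1 fell by 0.67 with TLR2.CD86 (adjusted p = 0.0431), by 1.90 with anti-CD40 (adjusted p = 0.00117) and by 1.66 with TLR2.CD40 (adjusted p = 0.000786) on the log2 scale. The list's medians were -0.52, -0.44 and -0.35. With the block 3 of 4 were lower with anti-CD86, 4 with TLR2.CD86, 2 with anti-CD40 and 3 with TLR2.CD40. Of 8 other Kruppel-like factors, anti-CD40 raised 1 and lowered 2, TLR2.CD40 raised 1 and lowered 1, and anti-CD86 lowered 1. Klf10, a TGF-beta-inducible repressor, rose with both (0.70 and 0.91), Klf13 fell with anti-CD40 (-1.07), Klf4 fell with both (-0.92 and -0.66), and Klf11 fell with anti-CD86 (-0.78). With the block 3 of 8 were lower with anti-CD86, 1 lower with TLR2.CD86, 5 lower and 1 higher with anti-CD40, and 4 lower and 3 higher with TLR2.CD40.

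In the list of FOXO relatives and FOXO targets of growth arrest 13 genes were measured. Of these 8 fell and none rose with anti-CD40 (median -0.58, against -0.02 over all probes), 9 fell and 2 rose with TLR2.CD40 (median -0.87, against 0.01), and 2 fell with TLR2.CD86 (median -0.39, against -0.03). With the block 9 were lower and 1 higher with anti-CD40, 9 lower and 3 higher with TLR2.CD40, 6 lower and 1 higher with TLR2.CD86, and 2 lower and 3 higher with anti-CD86. Pik3ip1, an inhibitor of PI3K, fell by 1.46 on the log2 scale with TLR2.CD40 (adjusted p = 0.000655) and by 0.59 with anti-CD40 (adjusted p = 0.0297). Fbxo32, a ubiquitin ligase subunit, fell by 1.26 with anti-CD40 and 1.24 with TLR2.CD40. Gadd45a, a growth arrest and DNA damage gene, fell by 1.06 with anti-CD40, 1.23 with TLR2.CD40 and 0.74 with TLR2.CD86. The cyclin Ccng2 fell by 1.07 with anti-CD40 and 1.05 with TLR2.CD40. The 2 that rose, named after their values were seen, were Bcl2l11 (0.71), which encodes the death-promoting protein BIM, and Rictor (0.47), a subunit of mTORC2.

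In the mTORC1 restraint list, 8 of 13 genes were measured. Anti-CD40 lowered 4, TLR2.CD40 lowered 3 and raised 1, and TLR2.CD86 lowered 1, with medians of -0.49, -0.54 and -0.19. With the block 6 were lower and 1 higher in each anti-CD40 condition, 2 lower and 1 higher with TLR2.CD86, and 1 lower and 1 higher with anti-CD86. Sesn1 and Sesn3, sestrins that also stand in the FOXO list, fell, Sesn1 by 1.05 with anti-CD40 and 0.96 with TLR2.CD40, and Sesn3 by 0.58 with TLR2.CD86, 0.56 with anti-CD40 and 0.87 with TLR2.CD40. Inpp5d, which encodes the phosphatase SHIP1, fell with anti-CD40 (-0.49) and TLR2.CD40 (-0.63). The gene that rose with TLR2.CD40 was Akt1s1 (0.55), named after its value was seen, which encodes the mTORC1 inhibitor PRAS40.

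Of 12 measured genes of the CCR4-NOT deadenylase and BTG relatives, 2 fell with anti-CD40 (Cnot8 by 0.64 and Cnot6l by 0.36) and 2 with TLR2.CD40 (Cnot3 by 0.72 and Rqcd1 by 0.68), with none higher and medians of -0.11 and -0.16. With the block 2 were lower and 2 higher with anti-CD40, 6 lower and 3 higher with TLR2.CD40, 2 lower with TLR2.CD86, and 1 lower and 1 higher with anti-CD86. In the list of TXNIP relatives and thioredoxins, 2 of 9 fell with TLR2.CD86 and with anti-CD40 and 1 with TLR2.CD40. They were the arrestin-like gene Arrdc3 (-0.58, -0.65 and -0.82) and the thioredoxin gene Txn1 (-0.58 with TLR2.CD86 and -0.57 with anti-CD40). With the block 3 were lower with anti-CD86 and 4 in each of these 3 conditions. Of 9 genes of the glucocorticoid receptor and its targets, TLR2.CD86 lowered 1, anti-CD40 lowered 1, and TLR2.CD40 lowered 2 and raised 1. The receptor gene Nr3c1 fell with anti-CD40 (-0.76) and TLR2.CD40 (-0.82), the co-chaperone gene Fkbp5 fell with TLR2.CD86 (-0.79), Zbtb16 fell with TLR2.CD40 (-0.62), and the phosphatase gene Dusp1 rose with TLR2.CD40 (1.11). With the block 2 were lower and 2 higher with anti-CD86, 4 lower and 2 higher with TLR2.CD86, 5 lower and 1 higher with anti-CD40, and 7 lower and 1 higher with TLR2.CD40.

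**Figure D5:**
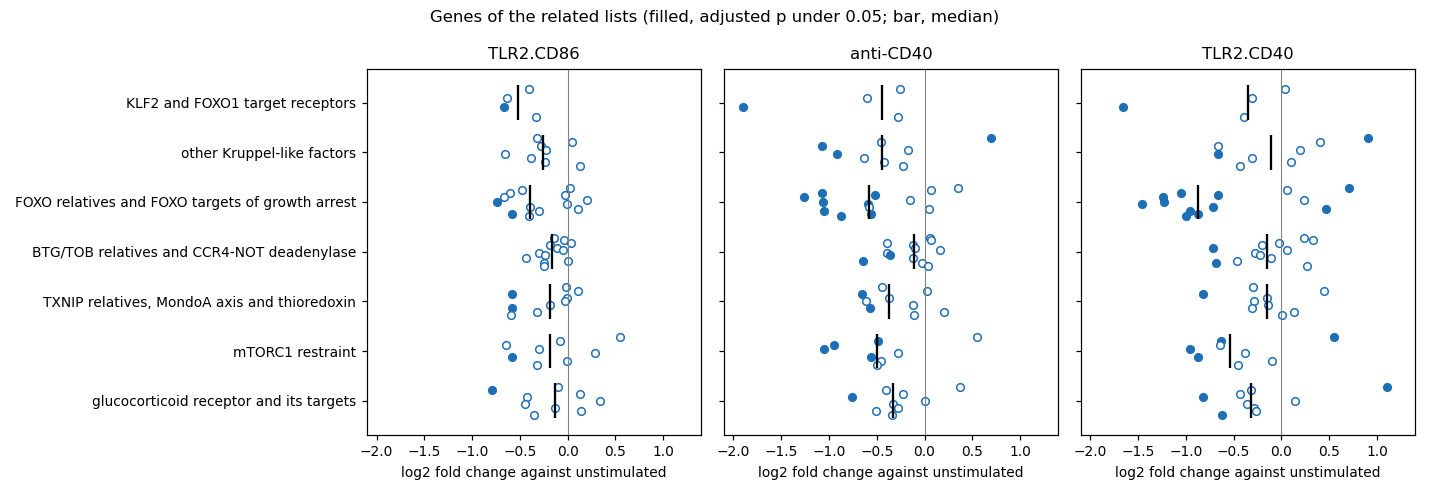
Log2 fold changes against unstimulated cells (horizontal axis) of the measured genes of the 7 related lists (rows) with TLR2.CD86, anti-CD40 and TLR2.CD40 (panels); each point is a gene, filled where the adjusted p is under 0.05, and the vertical tick is the list's median. The FOXO list lies lowest with TLR2.CD40, with a median of -0.87.

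The genes most like the 3 members with the widest range were sought among 10637 named genes over the 12 arrays. Ddit4 was most like Srebf2 (Pearson r = 0.973), the master regulator of sterol synthesis, Lmnb1 (0.971), a nuclear lamin, and Cog8 (0.941), a subunit of a Golgi tethering complex. Btg2, with a range of 1.06, was most like Zbtb4 (0.994), a zinc finger repressor, Dgke (0.993), a diacylglycerol kinase, and Arhgap25 (0.992). Foxo1, with a range of 0.92, was most like Ddit3 (0.986), the stress factor CHOP, Ndfip1 (0.984), an adaptor of ubiquitin ligases, and Crem (0.98), a cyclic AMP response factor. The 12 points share the slides and the scaling of each array, and these values are a description of likeness in these arrays.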

How the data were processed

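RNA of 12 samples of resting B cells, 2 for each of 6 conditions, was labelled with Cy3 and hybridised to 12 one-colour custom Agilent arrays, annotated on build mm9 (the probes of these genes carry no position in the files). The authors scanned the arrays and deposited the output of Agilent Feature Extraction 10.5.1.1, in which gProcessedSignal is the background-subtracted intensity of each spot. A second deposited table by the authors holds log2 values, which equalled log2 intensity minus a constant for each array near its 75th percentile (within 0.01 for all probes compared), and this table was used as an alternative.

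Here control spots and outlier spots were left out of 61657 non-control spots, spots of a probe were averaged (61307 probes), and log2 intensity was set against each array's 75th percentile. Probes entered the fit when 1 or more conditions had both arrays well above background. This kept 31669 probes, of which 31601 had a value on every array. limma 3.58.1 (lmFit and eBayes, R 4.3.3) was fitted over all 12 arrays with a term for each condition, without a block, with Benjamini-Hochberg adjustment over all probes and a threshold of 0.05. The probe of a gene was the brightest, and a probe saturated or not above background in a whole condition gave no fold. Array number and signal over background limit the precision. The fit was also run on simulated data with independent noise and known changes in TLR2.CD86 only, without and with a slide difference. That setting is simpler than the real arrays, and no conclusion is drawn from it.

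The alternatives were the slide as a block, slide 1 alone, the replicate number as a block, median and quantile normalization, normexp background correction, the deposited log2 values, no filter on dim probes, the next brightest probe, the one-way test of the study's methods, and each array left out. The brightest unsaturated probe and crossed replicate numbers were added after the data were seen. Named genes were the 10 members, up to 4 genes of each related list with the largest log2 fold change among those called, and the 3 genes most like each of the 3 members with the widest range. The members and the lists were chosen with earlier results of these data known. A few listed genes are not reported here by name. All 18 member probes matched the RefSeq symbol through their accession, and promoters came from RefSeq (GRCm38.p6). Tables used pandas 2.3.3 and numpy 2.4.6 in Python 3.11.15, and plots matplotlib 3.10.9.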

Additional observations from a re-analysis of the deposited data

Results flagged for a closer look

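The response of Ddit4 to Pam2CSK4 differed between cells without antibody and cells with anti-CD40, and the difference itself was tested as the interaction of anti-CD40 and Pam2CSK4. It was 1.62 on the log2 scale (limma, adjusted p = 0.0205). Adding Pam2CSK4 gave -0.82 without antibody and 0.80 with anti-CD40, on 2 arrays a condition. The same step read within slide 1 was -0.70 without antibody and 0.62 with anti-CD40.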

How the results depend on the processing

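The counts of called genes depended on the scaling, the filter, the slide and single arrays. Median normalization, which moved the median of all probes by -0.56 (anti-CD40) to -0.11 (TLR2.CD40) against unstimulated cells, left 1 gene over the 6 conditions, 0 with TLR2.CD86, anti-CD40 and TLR2.CD40, 0 for TLR2.CD40 against Pam2CSK4 and anti-CD40, 1 against TLR2.CD86, and 0 for the anti-CD40 interaction. Without the filter these counts were 2, 0, 1, 3, 1, 0, 1 and 0. The slide block gave 2 with Pam2CSK4, 3 with anti-CD86, 4 with TLR2.CD86, 2 for TLR2.CD86 against Pam2CSK4 and against anti-CD86, 5 for TLR2.CD40 against TLR2.CD86 and 2 for the anti-CD40 interaction. Quantile normalization gave 1 with anti-CD86, 1 for TLR2.CD86 against anti-CD86 and 4 for TLR2.CD40 against TLR2.CD86, and normexp 1 for TLR2.CD86 against anti-CD86. The deposited values gave 0 for TLR2.CD40 against anti-CD40, slide 1 alone gave 0 there, 4 for TLR2.CD40 against TLR2.CD86 and 0 for the interaction, and the next brightest probe gave 1 for TLR2.CD40 against Pam2CSK4 and 1 against TLR2.CD86. Ddit4, Foxo3 and Tob1 have 1 probe each, so the next-probe alternative read the same probe of these genes again. The gene it kept in both of those comparisons was Ddit4, so these counts are no check on Ddit4. In the labels the replicate numbers only name the samples. Same-numbered deviations correlated at 0.538 to 0.674 between the conditions split over the 2 slides, where the number goes with the slide. In pairs with unstimulated cells or TLR2.CD40 they correlated at -0.107 to 0.067. The replicate block gave 1 with Pam2CSK4 and 1 for TLR2.CD86 against anti-CD86, and the crossed replicate block gave 3 with TLR2.CD86. The cause was not tested.

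With each array left out in turn the count ranged from 2 to 6 over the 6 conditions, 0 to 2 with TLR2.CD86, 1 to 5 with anti-CD40, 2 to 6 with TLR2.CD40, 0 to 1 for TLR2.CD86 against anti-CD86, 1 to 4 for TLR2.CD40 against Pam2CSK4, 0 to 1 against anti-CD40, 1 to 3 against TLR2.CD86, 0 to 1 for the anti-CD40 interaction, and stayed at 0 with Pam2CSK4, anti-CD86, TLR2.CD86 against Pam2CSK4 and the anti-CD86 interaction.

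Every log2 fold change that turned sign was uncalled without a block, and of these Ddit4 with anti-CD40 (0.25) and Klf2 for TLR2.CD40 against TLR2.CD86 (-0.21) were called with the slide block. Under median normalization these were Klf2 0.02 (TLR2.CD40 against TLR2.CD86), Foxo3 -0.01 and Btg2 -0.11 (anti-CD86), and Btg1 -0.51 and Ddit4 -0.46 (anti-CD40). Klf3 with Pam2CSK4 was 0.03 (quantile), 0.10 (slide block) and 0.08 (slide 1), and -0.13 to 0.08 with an array left out. Txnip with anti-CD86 was 0.05 (quantile), 0.03 (slide block) and 0.01 (slide 1), and -0.11 to 0.01 with an array left out. Foxo3 with anti-CD86 was -0.06 (normexp), -0.30 (slide block) and -0.48 (slide 1), and with TLR2.CD86 -0.13 (slide block). With an array left out it ranged from -0.48 to 0.74 with anti-CD86, -0.57 to 0.38 with Pam2CSK4 and -0.87 to 0.22 with anti-CD40. With anti-CD40 and an array left out, Btg1 ranged from -0.11 to 0.22 and Ddit4 from -0.07 to 0.29. Btg2 with anti-CD86 was -0.15 on the next probe and -0.02 to 0.07 with an array left out. Tob1 with TLR2.CD86 was 0.07 on slide 1 and -0.12 to 0.07 with an array left out.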
